A study of Mus musculus with 36 samples.

Results

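The goblet cell genes followed along the mouse gut were Muc2, Retnlb, Tff3, Agr2, Fcgbp and Spdef. They were chosen by gene symbol, and every probe set annotated to one of the 6 symbols was taken, which gave 10 probe sets of the 36701 tested. Of these, 8 lay on array set A and 2 on array set B. Whole segments of intestine came from male mice of the outbred stock Hsd:ICR(CD-1), 8 weeks of age and fed standard chow, and no treatment or genotype is named. The 4 groups were duodenum, taken next to the stomach, jejunum, taken midway, ileum, taken up to where the caecum joins, and colon, which was left whole. A group held 3 samples, each a pool of tissue from 10 mice, and each sample was hybridised to all 3 array sets, 36 arrays in all. Pooling averages over single animals, so the spread between them cannot be seen, and p-values measure only the spread between pools.

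Goblet cells are the mucus-secreting cells of the intestinal epithelium, and their share of the epithelium is known to be greater in the colon than in the small intestine. They store heavily glycosylated mucin in granules and release it to form the gel that keeps bacteria away from the surface. The gel-forming mucin Muc2 folds and polymerises in the endoplasmic reticulum and Golgi with the help of chaperones and disulfide isomerases, and smaller secreted proteins are packed beside it. Of the 6 genes, 4 encode secreted proteins (Muc2, Fcgbp, Tff3 and Retnlb), while Agr2 encodes a protein disulfide isomerase of the endoplasmic reticulum and Spdef an ETS-family transcription factor of goblet cell maturation. In bulk tissue, fewer goblet cells and less RNA per goblet cell cannot be told apart.

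The 250 bases before the start site were available for 4 of the 6 genes, and they are shown because 3 of these genes (Muc2, Agr2 and Spdef) were higher in the colon and the other, Fcgbp, was not called in any comparison. Sequences are from RefSeq on GRCm38.p6, run 5′ to 3′ on the strand of the gene and end at the base before the start. Capitals mark matches, on either strand, to TTTATG (a caudal-type motif), TGTTTAC (forkhead), CAGCTG (an E-box, which reads the same on both strands) and CACCC (Kruppel-like). Retnlb and Tff3 are named only.
Muc2, chr7:141690090-141690339, plus strand: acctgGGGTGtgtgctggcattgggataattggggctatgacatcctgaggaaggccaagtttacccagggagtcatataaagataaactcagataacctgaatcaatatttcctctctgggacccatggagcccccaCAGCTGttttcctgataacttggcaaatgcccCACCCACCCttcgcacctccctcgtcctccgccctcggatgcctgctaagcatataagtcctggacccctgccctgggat
Agr2, chr12:35992675-35992924, plus strand: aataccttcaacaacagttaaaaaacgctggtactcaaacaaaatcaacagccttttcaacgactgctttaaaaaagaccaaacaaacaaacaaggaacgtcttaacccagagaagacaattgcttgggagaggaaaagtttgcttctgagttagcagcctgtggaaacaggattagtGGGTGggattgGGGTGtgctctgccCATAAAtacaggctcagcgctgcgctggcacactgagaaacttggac
Spdef, chr17:27728952-27729201, minus strand: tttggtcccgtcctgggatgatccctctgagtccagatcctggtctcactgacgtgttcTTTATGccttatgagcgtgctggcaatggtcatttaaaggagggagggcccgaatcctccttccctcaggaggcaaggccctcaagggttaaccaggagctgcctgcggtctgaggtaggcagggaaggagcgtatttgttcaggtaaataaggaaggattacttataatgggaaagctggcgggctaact
Fcgbp, chr7:28070986-28071235, plus strand: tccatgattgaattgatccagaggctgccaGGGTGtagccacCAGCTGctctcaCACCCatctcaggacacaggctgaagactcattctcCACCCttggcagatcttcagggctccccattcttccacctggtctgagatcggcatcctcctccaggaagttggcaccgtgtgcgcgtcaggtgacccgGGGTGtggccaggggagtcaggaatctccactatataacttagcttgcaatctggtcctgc

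The caudal-type letters stood once in the Agr2 window, 47 to 42 bases before the start, and once in that of Spdef, 191 to 186 bases before it, against 10.8% of all 32851 promoter windows of this length. An E-box stood in the windows of Muc2 (112 to 107 bases before the start) and Fcgbp (208 to 203), against 13.0% of all windows. The short Kruppel-like letters matched 3 times in Muc2, where 2 of the matches overlap by 1 base, 2 times in Agr2, 4 times in Fcgbp and not in Spdef, against 52.0% of windows with at least 1 match. The forkhead letters, held by 3.2% of windows, were in none of the 4. No motif was held by Muc2, Agr2 and Spdef together, and a match describes letters only.

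The deposited values are array intensities on a linear scale. The median of an array after the scaling was 48.7 to 75.2 units on set A and 85.7 to 110.2 on set B, and precision is limited by how few arrays there are. Of the 10 probe sets, 7 were above the median of every array of their set, and the other 3 were below it on every array. The control for 18S ribosomal RNA was low in 4 samples (jejunum 2 and 3, ileum 1 and 3) and high in the other 8, and the ratio of 3′ to 5′ actin signal on set A was lowest in the ileum (1.14 to 1.20), followed by colon (1.30 to 1.43), jejunum (1.28 to 1.55) and duodenum (1.41 to 1.84). The mean log2 level of 12 pan-epithelial markers was 11.10 to 11.55 over the small-intestinal pools and 11.17 to 11.34 in the colon, and 2 of them, Vil1 and Cldn4, were called lower in the colon. Of 11 smooth muscle markers 10, all but Lmod1, were called higher in the colon, and their mean log2 level was 8.81 to 9.87 in the small-intestinal pools against 10.92 to 11.01 in the colon. The part of the muscle share in the members' differences was not tested, and the members' values relative to the epithelial markers are given below. That scale used 11 of the 12 markers, all but Tjp3, which lies on array set B. Vil1 and Cldn4 are among the 11, and their lower colonic level adds to every colon difference on that scale.

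The question was where along the intestine each gene was higher or lower. The colon stood apart for 5 of the 6 genes. Retnlb, Muc2, Agr2 and Spdef were higher there than in the small intestine by ratios of 8.64, 6.48, 3.26 and 2.98, Tff3 was lower, the small-intestinal mean being 1.87 times the colon, and Fcgbp was not called. Within the small intestine only Retnlb was called in any pair of segments. By limma with Benjamini-Hochberg adjustment, 6 of the 10 probe sets were called at an adjusted p below 0.05 for any difference among the segments, against 8.82% of all probe sets and 13.7% of all genes. The same 6, which are those of Muc2, Retnlb, Tff3 and Spdef and 2 of Agr2, were called for the colon against the small-intestinal mean (7.57% of all), and for the colon against ileum (3.28%), duodenum (5.99%) and jejunum (9.19%) taken singly. For jejunum against duodenum 0 members were called (0.924% of all). For ileum against jejunum (2.78%) and for ileum against duodenum (1.83%) there was 1, Retnlb.

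**Figure D1:**
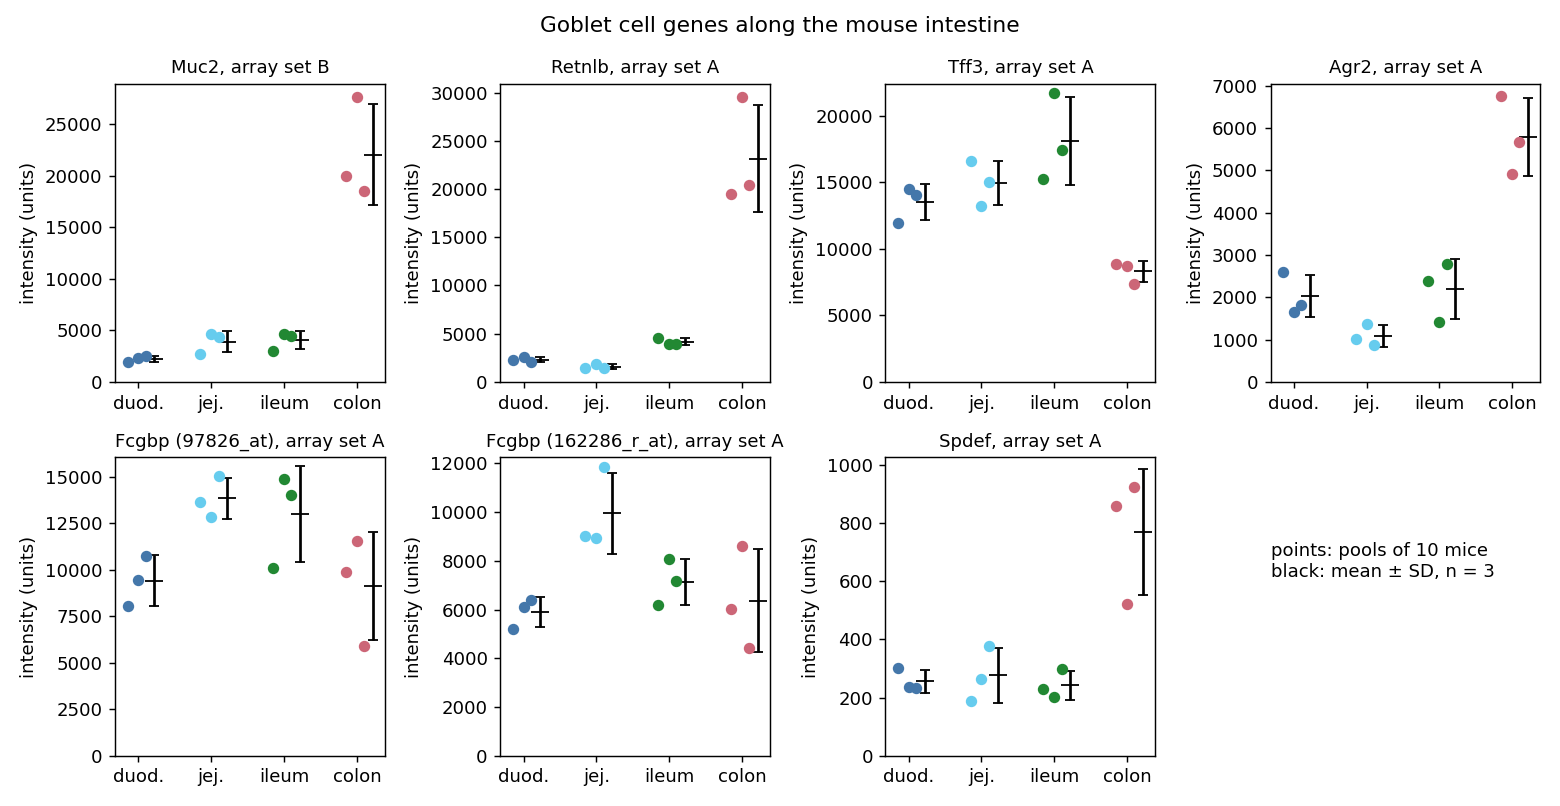
Intensity (linear units, each axis from 0) of the 7 probe sets above the array median on every array, by segment. Points are pools of 10 mice, and black marks are mean ± SD of 3 pools. All 3 colon pools lie above all 9 small-intestinal pools for Muc2, Retnlb, Agr2 and Spdef and below them for Tff3. For both Fcgbp probe sets the colon pools overlap those of duodenum and ileum, while the jejunal pools lie above all duodenal and colonic ones. How many of all probe sets separate in such ways was not counted, so here and in the text non-overlap only describes the values.

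Muc2 encodes the mucin that forms the mucus gel. Its probe set 165232_at on array set B read 1943, 2278 and 2527 units in the duodenal pools, 2710.5, 4682 and 4343 in the jejunum, and 3036, 4608 and 4492 in the ileum. In the colon it read 19972, 27637 and 18511. Every colon pool was thus well above every small-intestinal pool, while jejunum and ileum overlapped and all of both lay above the duodenum. Means were 2249 ± 293, 3912 ± 1054, 4045 ± 876 and 22040 ± 4902 (SD, n = 3) from duodenum to colon. The colon exceeded the small-intestinal mean by 2.74 on the log2 scale (SE 0.196, 95% interval 2.32 to 3.16, adjusted p = 8.5e-08). Against single segments the ratio of means was 9.80 for the duodenum, 5.63 for the jejunum and 5.45 for the ileum, with adjusted p of 1.41e-07, 2.98e-06 and 6.89e-06.

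In order of level for Muc2, the colon came first, then ileum and jejunum, which differed by 0.06 (95% interval -0.45 to 0.57, adjusted p = 0.958), then the duodenum. Although the duodenal pools did not overlap the jejunal or ileal ones, the differences of 0.76 (95% interval 0.25 to 1.27, adjusted p = 0.19) and 0.83 (0.32 to 1.34, adjusted p = 0.119) did not pass after adjustment. Without jejunum 1, which was the lowest jejunal pool and the only one with high 18S signal, both passed, at adjusted p of 0.0289 and 0.0486. Over the 25 alternatives the difference ran from 0.28 to 1.01 for jejunum minus duodenum and from 0.54 to 1.04 for ileum minus duodenum. For ileum minus jejunum it ran from -0.18 to 0.76.

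Fcgbp encodes a large protein of the mucus gel that is bound to Muc2 in it. It was measured by 2 bright probe sets on array set A. The first, 97826_at, read 8028, 9460.4 and 10749.6 units in duodenal pools, 13609, 12841 and 15036 in the jejunum, 10062, 14867 and 14022 in the ileum, and 9885, 11539 and 5897 in the colon. The second, 162286_r_at, read 5213, 6091 and 6373 in the duodenum, 9019.9, 8946 and 11864 in the jejunum, 6187, 8056 and 7167 in the ileum, and 6035, 8628 and 4422 in the colon. Both were highest in the jejunum, whose pools lay above all duodenal and all colonic pools, and both had their widest spread in the colon, where colon 3 was the lowest array.

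For Fcgbp, unlike Muc2, no colonic difference was called. The colon minus the small-intestinal mean was -0.43 (95% interval -0.85 to -0.02, adjusted p = 0.251) on 97826_at and -0.28 (-0.66 to 0.11, adjusted p = 0.49) on 162286_r_at. The second interval bounds any colonic excess over that mean at 0.11 on the log2 scale before adjustment. Against the duodenum alone the colon difference on 162286_r_at was 0.06 (95% interval -0.411 to 0.535). The colon minus jejunum difference was -0.65 (95% interval -1.16 to -0.14, adjusted p = 0.117) and -0.68 (-1.16 to -0.21, adjusted p = 0.072). That second difference passed in 4 of 25 alternatives, one of them without colon 2 (-0.93, adjusted p = 0.0149). With each array centred on its median both probe sets passed, at -0.98 (adjusted p = 0.0274) and -1.01 (adjusted p = 0.0176). Jejunum minus duodenum was 0.56 (0.05 to 1.07, adjusted p = 0.385) and 0.75 (0.27 to 1.22, adjusted p = 0.165). In order of mean level the jejunum came first on both probe sets and the ileum second, and no neighbours in the order differed beyond the threshold.

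Tff3 encodes the intestinal trefoil peptide, a small protease-resistant protein secreted with mucus that aids repair of the epithelium. The bright probe set 100106_at on array set A read 11952, 14542 and 14076 units in duodenal pools, 16625, 13264 and 15019 in the jejunum, and 15231, 21716 and 17473 in the ileum. The colon pools read 8869.5, 8691 and 7373. All 3 were below every small-intestinal pool, whereas the Muc2 readings of the same colon samples were above. Means were 13524 ± 1380, 14970 ± 1681, 18140 ± 3293 and 8311 ± 817 (SD, n = 3). Tff3 fell by 0.89 on the log2 scale from the small-intestinal mean to the colon (95% interval of the change -1.21 to -0.57, SE 0.15, adjusted p = 0.00121).

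Against the ileum the colonic Tff3 level was 2.18-fold lower (-1.11, adjusted p = 0.00194), against the jejunum 1.80-fold lower (-0.85, adjusted p = 0.00759) and against the duodenum 1.63-fold lower (-0.70, adjusted p = 0.0344). The difference from the duodenum was not firm: it missed the threshold in 8 of 25 alternatives, over which the adjusted p ran from 0.00821 to 0.157. Single pools sufficed for this, since the adjusted p was 0.131 without duodenum 2, 0.114 without duodenum 3, 0.0508 without ileum 3, and 0.0782, 0.0816 and 0.157 without colon 1, 2 and 3. With the pool number as a replicate block it was 0.0536. In order, ileum, jejunum and duodenum were not told apart (ileum minus duodenum 0.41, 95% interval 0.02 to 0.81, adjusted p = 0.409). A second Tff3 probe set, 165371_i_at on array set B, read 9.0 to 70.5 units, below the array median everywhere, and was not called.

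Retnlb encodes resistin-like molecule beta, a protein that goblet cells secrete into the gut lumen and that is known to be induced by bacterial colonisation and by type 2 cytokines. Its probe set 93755_at on array set A read 2237, 2622 and 2053.5 units in duodenal pools, 1422, 1893 and 1399 in the jejunum, and 4575, 3966 and 3933.5 in the ileum. In the colon it read 19439.6, 29517 and 20417. No 2 segments overlapped: the jejunum was lowest, then the duodenum, the ileum and the colon. Means were 2304 ± 290.1, 1571 ± 279, 4158 ± 362 and 23125 ± 5558 (SD, n = 3) from duodenum to colon. The colon exceeded the small-intestinal mean by 3.20 (SE 0.153, 95% interval 2.87 to 3.53, adjusted p = 1.46e-09).

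The colon to ileum ratio of Retnlb was 5.56 (log2 difference 2.45, adjusted p = 7.11e-07), the colon to duodenum ratio 10.0 (3.30, adjusted p = 1.34e-08) and the colon to jejunum ratio 14.7 (3.85, adjusted p = 1.93e-09). Retnlb was also the member that differed within the small intestine. The ileum exceeded the jejunum by 1.41 (ratio 2.65, adjusted p = 0.000746), and the call was kept in 24 of 25 alternatives. Among the 8 samples with high 18S signal, which keep 1 pool each of jejunum and ileum, the difference was 1.47 (adjusted p = 0.178). The lone pools are then assumed to vary like the others.

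Against the duodenum the ileum was higher in Retnlb by 0.85 (ratio 1.81, adjusted p = 0.0275), and this was lost in 10 of 25 alternatives, with adjusted p from 0.000602 to 0.243. It was lost without duodenum 1 (0.0856), duodenum 3 (0.136), ileum 1 (0.12), ileum 2 (0.0575) or ileum 3 (0.0826), each left out alone. With each array centred on its median it was 0.74 (adjusted p = 0.174), and relative to the epithelial markers 0.56 (adjusted p = 0.136). The ileal arrays had the lowest actin ratio of the 4 segments, and its part in these differences was not tested. Jejunum minus duodenum was -0.55 (95% interval -0.96 to -0.15, adjusted p = 0.242), so these neighbours in the order were not separated by the test although the pools did not overlap. Relative to the epithelial markers that difference was -0.84 (adjusted p = 0.0248). On that scale the median jejunum minus duodenum difference of all probe sets moved from -0.06 to -0.35, and their calls from 339 to 599.

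Agr2 encodes the disulfide isomerase needed for Muc2 to be made in the intestine. Its bright probe set, 101075_f_at on array set A, read 2602.5, 1663 and 1828 units in duodenal pools, 1022, 1372 and 872.5 in the jejunum, and 2385, 1413.5 and 2791 in the ileum. In the colon it read 6752.5, 4917 and 5679. The colon pools lay above all others, the jejunal pools lay below all others, and duodenum and ileum overlapped. Means were 2031 ± 502, 1089 ± 256, 2197 ± 708 and 5783 ± 922 (SD, n = 3). The suffix of this probe set marks, in the maker's naming, probes that may match related transcripts. The probe sets of Klk1, Muc4, Muc5b, Pdia2, Ero1b and Ang4, which are named below, carry it too.

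From the small-intestinal mean to the colon Agr2 rose by 1.79 (SE 0.204, 95% interval 1.35 to 2.22, adjusted p = 2.88e-05). The colon was 2.63 times the ileum (1.43, adjusted p = 0.00306), 2.85 times the duodenum (1.52, adjusted p = 0.00119) and 5.31 times the jejunum (2.41, adjusted p = 1.11e-05). Ileum minus jejunum was 0.97 (95% interval 0.44 to 1.51, adjusted p = 0.0529), just outside the threshold, and 8 of 25 alternatives put it inside, with adjusted p from 0.00952 to 0.762. Those that left out 1 pool and did so were without ileum 2 (0.00952), without jejunum 2 (0.0476) and without duodenum 1 (0.048). Jejunum minus duodenum was -0.89 (95% interval -1.42 to -0.35, adjusted p = 0.136), and relative to the epithelial markers -1.18 (adjusted p = 0.0344). As stated for Retnlb, that scale moved the median of all probe sets down as well, from -0.06 to -0.35. Ileum minus duodenum was 0.08 (95% interval -0.45 to 0.62, adjusted p = 0.953).

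The other 2 Agr2 probe sets were dim. One, 162200_r_at, read 0.7 to 2.7 units in all 9 small-intestinal pools and 16.5, 6.2 and 13.4 in the colon, with no overlap. It was called (0.64 on the log2 scale after adding 16, adjusted p = 0.00435), but all 12 arrays read below the array median, so no fold is given, and its adjusted p in the 8 high-18S samples was 0.0552. The other, 101076_r_at, read 4.8 to 31.9 units over all pools and was not called (colon minus the small-intestinal mean -0.12, 95% interval -0.66 to 0.42, adjusted p = 0.885).

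Spdef encodes a transcription factor that promotes the maturation of goblet cells. Its probe set 104008_at on array set A read 302, 235 and 232 units in duodenal pools, 188, 263 and 377 in the jejunum, and 228, 202 and 298 in the ileum. The colon pools read 860.3, 520.4 and 926. The small-intestinal segments overlapped one another, and every colon pool was above them all. Means were 256 ± 39.5, 276 ± 95, 243 ± 49.95 and 769 ± 218 (SD, n = 3). Spdef rose by 1.502 from the small-intestinal mean to the colon (SE 0.214, 95% interval 1.05 to 1.96, adjusted p = 0.000247).

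Against single segments the Spdef difference was nearly even, at 1.49 for the duodenum (adjusted p = 0.00201), 1.44 for the jejunum (adjusted p = 0.00204) and 1.58 for the ileum (adjusted p = 0.00203). Within the small intestine no pair was called, and the differences were 0.06 for jejunum minus duodenum (95% interval -0.50 to 0.62), -0.14 for ileum minus jejunum (-0.70 to 0.42) and -0.08 for ileum minus duodenum (-0.64 to 0.48). These intervals allow changes of up to 0.70 in size on the log2 scale.

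**Figure D2:**
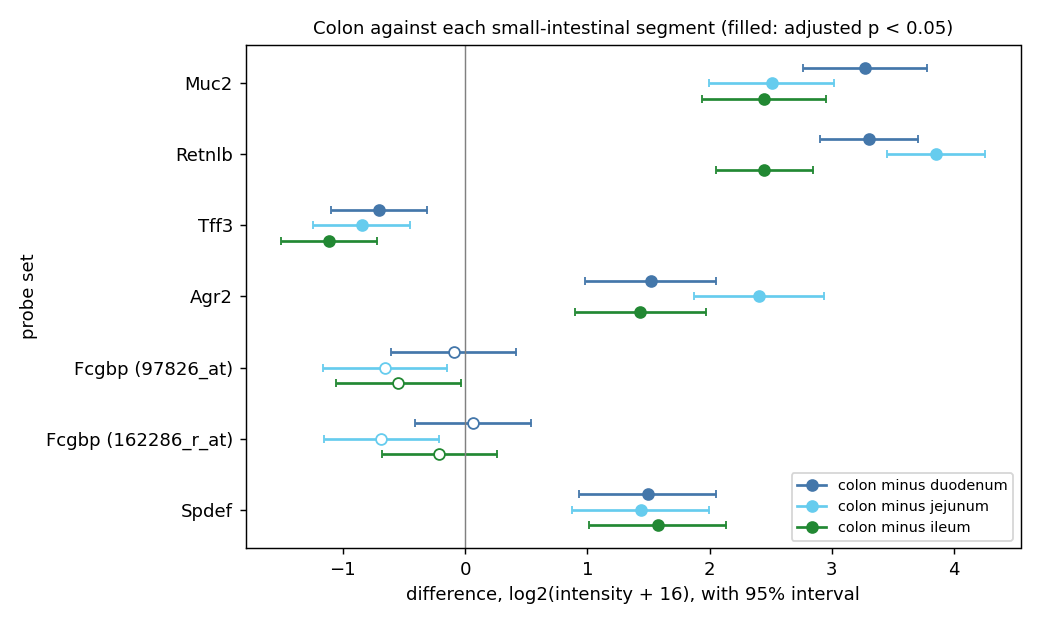
Difference of the colon from each small-intestinal segment in log2(intensity + 16), with its 95% interval, for the 7 bright probe sets. Filled points passed at an adjusted p below 0.05. Retnlb has its largest difference against the jejunum (3.85) and Muc2 against the duodenum (3.27), Tff3 lies below 0 against all 3 segments, and no Fcgbp point is filled.

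The colon calls of Muc2, Retnlb, Tff3, the bright Agr2 probe set and Spdef against the small-intestinal mean held under all 24 alternatives that give this comparison. The range of the difference was 2.57 to 3.06 for Muc2, 3.01 to 3.44 for Retnlb, -1.06 to -0.75 for Tff3, 1.61 to 2.00 for Agr2 and 1.33 to 1.76 for Spdef. Relative to the epithelial markers the differences were 2.87, 3.33, -0.76, 1.91 and 1.63 in the same order. In the 8 high-18S samples they were 2.83, 3.27, -1.03, 2.00 and 1.73. All 5 passed there too.

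**Figure D3:**
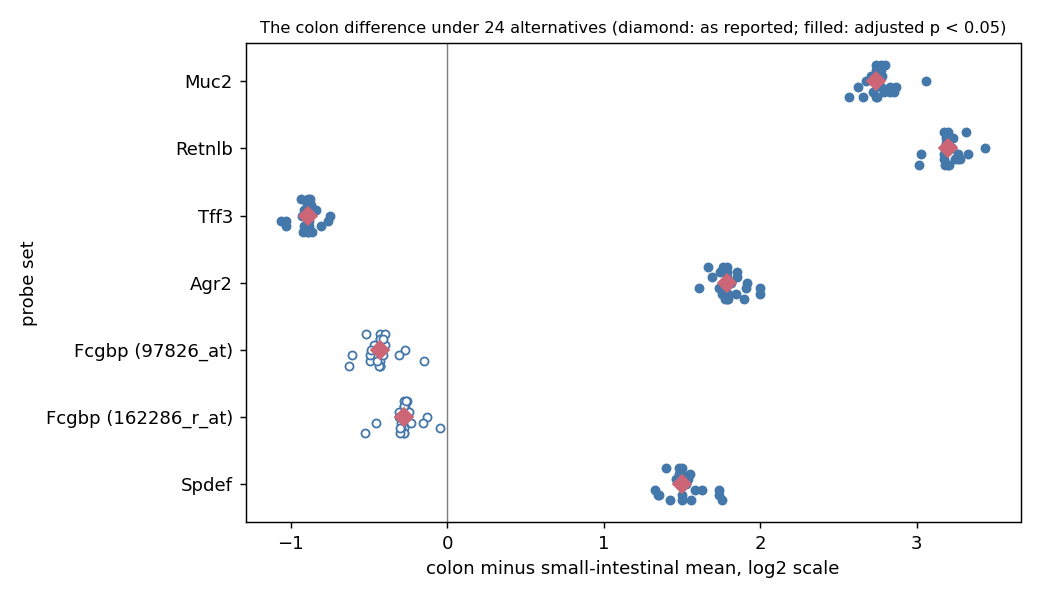
Difference of the colon from the small-intestinal mean (log2 scale) for the 7 bright probe sets under 24 alternatives (circles) and as reported (diamonds). Filled circles passed at an adjusted p below 0.05. All circles of Muc2, Retnlb, Tff3, Agr2 and Spdef are filled and stay on 1 side of 0, and all Fcgbp circles are open.

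Other genes of the goblet cell were read from lists, with 1 probe set a gene. A listed gene counts as measured when it has a probe set of its own, also where that reads below the array median. Across all 15964 genes, 6.87% were called higher in the colon than in the small-intestinal mean, 4.95% were called lower, and the median difference was 0.05. With each array centred on its median, the split of calls changed from 1097 higher and 791 lower (58.1% higher) to 688 higher and 927 lower (42.6%), and the median moved to -0.08. Relative to the epithelial markers it was 68.7% higher, with a median of 0.18.

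Of 35 other mucus and goblet cell genes, 30 were measured, 13 were called higher in the colon, 3 lower and 14 neither, with a median difference of 0.63. Klk1, a secreted kallikrein protease, read 1664 ± 391, 535 ± 63.8, 1214 ± 361 and 7317 ± 454 units (SD, n = 3) from duodenum to colon, a rise of 2.84 (adjusted p = 3.74e-08). Aqp8, a water channel that also served as a colonocyte marker here, rose by 3.69 (adjusted p = 7.15e-07) and Ramp1, a receptor-modifying membrane protein, by 1.33 (adjusted p = 6.1e-06). Zg16, a lectin of the mucus that binds bacterial walls, read 11900 ± 1660, 12620 ± 716, 13290 ± 1520 and 9040 ± 556 units. Like Tff3 it was lower in the colon, but at -0.47 its adjusted p of 0.0491 was lost in 14 of 24 alternatives (highest 0.237, without colon 3), 9 of them leaving out 1 pool, namely any but duodenum 1, jejunum 1 or ileum 1. Against duodenum, jejunum and ileum singly, colonic Zg16 was not called lower (adjusted p = 0.25, 0.0991 and 0.114). The third lower gene beside Zg16 and Tff2 was Pla2g2a, a secreted antibacterial phospholipase, at -3.25 (adjusted p = 0.000444), named after its values were seen. Clca1, a protease that processes Muc2, read 11450 ± 2100 in the duodenum and 16940 ± 4920 in the colon and was not called (0.53, adjusted p = 0.113), while with quantile normalization it was 0.86 (adjusted p = 0.000391) and relative to the epithelial markers 0.66 (adjusted p = 0.0314).

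Among other mucins, the measured ones of the cell membrane rose in the colon with the exception of Muc13. Muc1 rose by 1.49 (adjusted p = 0.00167), Muc3 by 1.04 (adjusted p = 0.00461), Muc3a by 1.55 (adjusted p = 0.00184) and Muc4 by 2.66 (adjusted p = 0.0109; 0.0965 without colon 3). Against single segments, colonic Muc3 was not called above the ileum (adjusted p = 0.187), nor Muc4 above the duodenum (0.0806). Muc13 was -0.02 (adjusted p = 0.983), with a sign that turned under 7 of 24 alternatives. Muc1 read 440 ± 50.6 units (SD, n = 3) in the duodenum, 51.5 ± 26.8 in the jejunum, 76.6 ± 28.9 in the ileum and 379 ± 100 in the colon, so that its colonic rise is against the mean of unlike segments. The gel-forming mucins of other tissues were dim: Muc5ac, the main mucin of the stomach, was below the array median on all 12 arrays and Muc5b, that of the airways, on 11 of 12 (-0.53, adjusted p = 0.553). No value is given for Muc6, Muc17 and Muc20.

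The other trefoil peptides were highest in the duodenum. Tff2, the trefoil peptide of the stomach and of the duodenal Brunner glands, read 18750 ± 3310 units (SD, n = 3) in the duodenum, 14.9 ± 14.8 in the jejunum, 19.5 ± 12.4 in the ileum and 52.5 ± 35 in the colon. Its colon difference was -2.09 (adjusted p = 0.000678; 0.0643 with an offset of 1 before log2). Tff1, that of the gastric surface, read 3494 ± 2490 in the duodenum and 378 to 430.2 as means elsewhere, and was not called for the colon (-0.83, adjusted p = 0.305), while without duodenum 2 it was (-1.10, adjusted p = 0.0105). Gastric and Brunner gland markers, a list that holds both genes, had a mean log2 level that ran from 9.35 to 9.61 in duodenal pools against 6.10 to 6.63 elsewhere.

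Of the resistin-like family, Retn and Retnla were measured. Retn, resistin itself, read 7.87 ± 2.70, 8.40 ± 2.93, 10.3 ± 3.57 and 76.6 ± 20.6 units (SD, n = 3) and rose in the colon (1.88, adjusted p = 2.29e-05), but only 2 of its 12 arrays were above the array median, and the size depends on the offset: it was 3.00 after adding 1 and 0.94 after adding 64. Retnla was below the median on all arrays and not called (0.55, adjusted p = 0.404). Of genes of type 2 cytokine signalling, a known inducer of Retnlb, 19 of 21 listed were measured. Among these, Il5, Il13, Il13ra2, Ccl11, Tgfb1, Arg1, Chil3 and Alox15 read below the array median on all 12 arrays. A change in them could thus have gone unseen. In the colon, 0 of the 19 were called higher and 3 lower, with a median of -0.29. Those 3 were Ccl24, an eosinophil chemokine (-1.48, adjusted p = 0.00411), Il33, an epithelial alarmin (-1.35, adjusted p = 0.046), and Stat6, which transmits the signal of interleukins 4 and 13 (-0.76, adjusted p = 0.0252). Il33 was lost in 15 of 24 alternatives (0.252 without colon 3, and lost without any other single pool except duodenum 3, ileum 2 or colon 1) and Stat6 in 7 (0.0686, 0.162 and 0.0756 without colon 1, 2 and 3), and the count was 1 without colon 2, without colon 3, with no intensity trend, with the 18S block, in the high-18S samples and relative to the epithelial markers. The receptor chain Il4ra was not called (-0.60, adjusted p = 0.0636) but passed in 5 of 24 alternatives: quantile normalization (-0.74, 0.0229), median centring (-0.78, 0.0339), adjustment within the array set (0.0359), the filter on low values (0.044) and without ileum 2 (0.0451). Il9 was not called either (-0.54, adjusted p = 0.389) and was above the array median on 1 array. From duodenum to colon, means were 358, 705, 214 and 143 units for Ccl24 and 527, 957.5, 296 and 193 for Il33, both highest in the jejunum. Ccl24, Il33 and Stat6 were called for colon minus jejunum (adjusted p = 0.00044, 0.00469 and 0.0422). None of them was called for colon minus ileum (0.474, 0.837 and 0.156). For colon minus duodenum Ccl24 was called (0.0293), but Il33 (0.152) and Stat6 (0.101) were not.

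Secretory lineage factors and Notch genes, the group in which Spdef acts, had 28 measured members of 29, of which 11 were called higher in the colon and 3 lower, with a median of 0.46. The 3 lower genes, named after their values were seen, were Gata4, a factor of the proximal small intestine (-1.53, adjusted p = 0.00294), the Notch ligand Dll1 (-1.23, adjusted p = 0.0104) and Hes6 (-0.61, adjusted p = 0.0157). The Dll1 call was lost without colon 1 (0.103), with a block for 18S class (0.0565) and in the high-18S samples (0.0967). That of Hes6 was lost without colon 1 (0.0837) or colon 2 (0.133), with the 18S block (0.0532), in the high-18S samples (0.0751) and relative to the epithelial markers (0.0974). The lower count was 1 without colon 1, with the 18S block and in the high-18S samples. Against the ileum alone the colon was not called lower for Gata4, Dll1 or Hes6 (adjusted p = 0.117, 0.461 and 0.26). Against the jejunum it was called for all 3 (0.00764, 0.00641 and 0.0149). Against the duodenum it was called for Gata4 (0.00453) and Dll1 (0.0181) but not for Hes6 (0.0501). The higher count of 11 became 7 without colon 3 and 7 with each array centred on its median. Foxa1, a forkhead factor of the gut epithelium, read 81.0 ± 20.8, 48.6 ± 20.1, 144.5 ± 33.9 and 442 ± 73.8 units (SD, n = 3) and rose by 2.21 (adjusted p = 1.4e-05). Klf4, a zinc finger factor of goblet cell differentiation, rose by 1.47 (adjusted p = 1.76e-05), the caudal-type factor Cdx1 by 1.18 (adjusted p = 2.18e-05) and the Notch target Hes1 by 0.89 (adjusted p = 0.000458). The ETS-family factor Ehf rose by 2.20 (adjusted p = 6.27e-06), with 3 arrays above the array median (3.23 after adding 1 and 1.20 after adding 64). Atoh1, the factor that commits cells to the secretory lineage, read 38.6 ± 21.6, 28.4 ± 25.5, 83.8 ± 33.0 and 133.5 ± 43.7 units. Its rise of 1.31 (adjusted p = 0.0354) was lost in 10 of 24 alternatives, with an adjusted p of up to 0.204 (without colon 1). Among those that left out 1 pool, the loss came without colon 1 or 3, duodenum 1 or 2, or jejunum 2 or 3. Of the single segments, the colon was called above the jejunum for Atoh1 (adjusted p = 0.0131), but not above the ileum (0.691) or duodenum (0.0627).

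Genes of folding and stress in the endoplasmic reticulum, where Agr2 acts, had 34 measured members of 35. Of these 3 were called higher in the colon, 2 lower and 29 neither, with a median of 0.19. The 29 include Calr, Ssr4 and Hyou1, which read below the array median on every array, so a change in them could have gone unseen. Ern2, the stress sensor found in mucus-secreting epithelium, read 19.5 ± 6.50, 43.5 ± 32.9, 61.3 ± 43.2 and 284 ± 13.6 units (SD, n = 3) and rose by 2.59 (adjusted p = 0.000619; 3.17 after adding 1 and 1.78 after adding 64), with 6 arrays above the array median, and the disulfide isomerase Pdia5 rose by 1.26 (adjusted p = 0.000256). The oxidase Ero1a, named after its values were seen, rose by 0.71 (adjusted p = 0.0102; 0.0549 without colon 2, 0.0743 without colon 3 and 0.108 with median centring). Sec61b, of the translocation channel, was not called (0.38, adjusted p = 0.169; 0.04 without jejunum 1). Both lower genes, Pdia2 (-1.47, adjusted p = 0.0059) and the related oxidase Ero1b (-0.93, adjusted p = 0.00849; 0.0906 without colon 3), were highest in the duodenum, Pdia2 at 638 ± 70.6 units against means of 15.5 to 19.9 elsewhere. Pancreatic markers had a mean log2 level that ran from 12.33 to 12.40 in duodenal pools against 6.12 to 7.26 elsewhere, and Pdia2 is known as the pancreatic disulfide isomerase. The part of pancreatic RNA in these 2 differences was not tested. The count of higher genes was 5 without jejunum 1, and that of lower genes 1 without colon 3.

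Mucin-type O-glycosylation, which adds the sugar chains of Muc2, had 23 measured genes of 29, of which 10 were called higher in the colon and 0 lower, with a median of 0.65. Those not called include St6galnac1, St6galnac3 and C1galt1c1, which read below the array median on every array. A change in these genes could have gone unseen. The count of 10 became 5 without colon 2, 5 among the 8 samples with high 18S signal and 6 with each array centred on its median, and it was 16 when all probe sets of these genes were counted. The sialyltransferase St6galnac6 read 17.6 ± 5.55, 12.7 ± 6.97, 108.5 ± 55.1 and 1304 ± 24 units (SD, n = 3), a rise of 4.79 (adjusted p = 9.41e-09). With 5 of its arrays above the array median, the size depends on the offset and was 5.53 after adding 1 and 3.76 after adding 64. Slc35a1, the Golgi transporter of CMP-sialic acid, rose by 2.60 (adjusted p = 1.06e-06), and St6gal1, a sialyltransferase of N-linked chains, by 1.70 (adjusted p = 5.58e-05). Galnt4, one of the enzymes that start mucin O-glycans, rose by 1.65 (adjusted p = 0.000152). Galnt10, of the same family, was called at 0.59 (adjusted p = 0.045) but lost in 15 of 24 alternatives (0.282 without colon 2, and lost without any other single pool except duodenum 3, jejunum 3 or colon 3). Its means were 249, 246, 120 and 307 units from duodenum to colon. The colon was called above the ileum (1.22, adjusted p = 0.00238), but not above the duodenum (0.27, adjusted p = 0.595) or jejunum (0.28, adjusted p = 0.545).

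**Figure D4:**
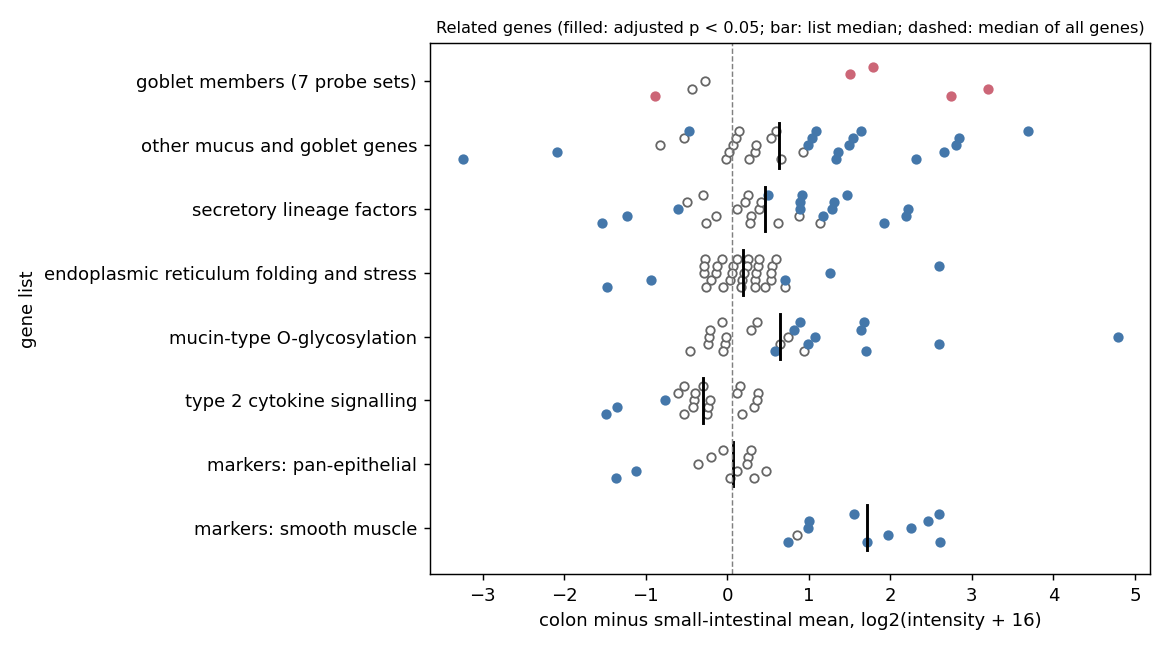
Difference of the colon from the small-intestinal mean in log2(intensity + 16), 1 point a gene, for the members (7 bright probe sets, top row), the related lists with over 2 measured genes, and the epithelial and smooth muscle markers. Filled points passed at an adjusted p below 0.05, bars are list medians, and the dashed line is the median of all genes (0.05). Points of O-glycosylation genes lie mainly to the right of 0 (median 0.65), those of folding and stress cluster near 0 (0.19), and of the medians drawn that of the smooth muscle markers is the highest (1.71).

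Other cell types of the wall also differed by segment. Of 13 absorptive enterocyte markers 12 were called lower in the colon (median -4.64), of 7 colonocyte markers 6 were called higher (3.18), and of 12 enteroendocrine markers 6 were called higher and 3 (Gip, Cck and Sct) lower. Of 6 measured Paneth cell markers 3 (Mmp7, Defa26 and Lyz1) were called lower, but Itln1 and Ang4, which are also counted among the mucus genes, were not called (0.66, adjusted p = 0.0642, and 0.60, adjusted p = 0.353). Of 5 tuft cell markers 1, Cd24a, was called higher and 0 lower. Of 9 gastric and Brunner gland markers 3 (Tff2, Gkn2 and Gkn3), and of 11 pancreatic markers 9, were called lower in the colon. The members' differences were not adjusted for these lists, apart from the values relative to the epithelial markers above.

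The genes whose pattern was most like a member were sought on the member's own array set by Pearson's correlation of log2 values over the 12 arrays, among 4393 genes of set B or 4747 of set A above the median. These values are descriptions, since the arrays share the 4 segments. For Muc2 the nearest was Ms4a8a (r = 0.953), with means of 5043, 6810, 8373 and 14140 units from duodenum to colon, then Aspg, Tshz1, Gsdmc2 and Fam189a2. For Retnlb they were Tagln (0.983), Sqor, Prom1, St6galnac6 and Cnn1, of which Tagln and Cnn1 are smooth muscle markers and St6galnac6 is the sialyltransferase above. Tagln had means of 696, 707, 1385 and 4884 units, so a rise from jejunum to ileum to colon like that of Retnlb was also present in a muscle gene.

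The gene most like Tff3 was Slc3a1, a subunit of an amino acid transporter (r = 0.983, means of 418, 495, 597 and 231 units), followed by Pfn1, Zg16 (0.956), Crip1 and Pex5. For Agr2 they were Tceal9 (0.974), Dnajc10, Sparcl1, Ppp6c and Gja1, of which Dnajc10 encodes a disulfide reductase of the endoplasmic reticulum (means of 180, 110, 159 and 372 units, likewise lowest in the jejunum). For Fcgbp no gene came as near, the first being Rbm42 (0.858), then Itpk1, Zfp574, Wdtc1 and Cln8. For Spdef they were Ssbp2 (0.964), S100a13, Reep5, P2rx4 and Pla2g10. By Spearman's rank correlation 2 of the 5 genes were again among the nearest for Muc2, 0 for Retnlb, 2 for Tff3, 0 for Agr2, 1 for Fcgbp and 3 for Spdef, so most of these names depend on the measure.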

How the data were processed

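Intestinal segments of mice were measured on 3 array sets, and the deposited tables were used. Per the labels, samples are pools, and the values are intensity on a linear scale. The authors scaled the deposited intensity values: the mean without the highest and lowest 2% was 200 to 200.2 on every array. The software for this is not given in the sources used here. A total of 198 control probe sets were left out, which left 36701 of 36899.

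From the values log2(intensity + 16) was computed, and each array set was fitted on its 12 arrays by limma 3.58.1 (R 4.3.3), with a mean for each segment and moderated variances with an intensity trend. The offset makes differences of dim probe sets smaller. Benjamini-Hochberg adjustment ran over all probe sets of the 3 sets jointly, tests were 2-sided, and a call means an adjusted p below 0.05. In all 8 comparisons were made. Ratios are of mean intensities. The procedure was tested on simulated data.

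Samples were grouped by the segment in their titles. One duodenal array on set C has a source name that gives another segment; no member lies on set C, and leaving the array out was an alternative. Genes were named by rule: all members, up to 5 genes of a related list with the smallest adjusted p for any difference, family relatives of the members, and the 5 genes most like each member. Marker genes named singly were chosen after their values were seen. Members and lists were chosen with earlier results of these data known. A gene with several probe sets was represented by the brightest on set A, else B, else C, and probe sets with several symbols were not named. Gene symbols follow the array annotation and RefSeq. Alternatives to the fits numbered 24, with 1 more added after seeing the data (relative to epithelial markers): offsets, scalings, a filter, no trend, blocks, subsets of samples and 12 fits that leave out 1 pool.

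The labels do not say that equal pool numbers of different segments share mice. Deviations of same-numbered samples from their segment means correlated between -0.36 and 0.36 on set A (median -0.02), so they were not taken as pairs.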

Additional observations from a re-analysis of the deposited data

How the results depend on the processing

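The count of member probe sets called was 6 for any difference and for each of the 4 colon comparisons, and over the alternatives it ran from 4 to 6 for colon minus duodenum, where Tff3 was lost in 8 of 25, and from 5 to 7 for the other 4. Within the small intestine it moved. For jejunum minus duodenum it was 0, became 2 relative to the epithelial markers and ran from 0 to 1 when 1 pool was left out. Relative to the epithelial markers, calls over all probe sets in this comparison rose too, from 339 to 599. For ileum minus jejunum it was 1, became 2 with an offset of 1, quantile normalization, the filter on low values, the 18S class as a block or adjustment within an array set, became 0 in the high-18S samples, and ran from 1 to 2 when 1 pool was left out. For ileum minus duodenum it was 1, became 0 with median centring, no intensity trend, the 18S class as a block, the high-18S samples or relative to the epithelial markers, and ran from 0 to 2 when 1 pool was left out. With the replicate block the colon minus duodenum call of Tff3 was lost (adjusted p = 0.0536), as were those of Zg16 (0.0696) and Galnt10 (0.0762) for the colon, and no other named call changed. The causes of these moves were not tested.

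Only differences that were not called turned their sign. For jejunum minus duodenum, Spdef was -0.29 with a block for 18S class, -0.41 in the high-18S samples, -0.23 relative to the epithelial markers and -0.18 to 0.29 when 1 pool was left out, and Tff3 was -0.145 relative to the epithelial markers. For ileum minus jejunum, median centring gave -0.094 for Muc2 and -0.009 for Tff3, the high-18S samples gave 0.127 for Fcgbp 97826_at and 0.094 for Spdef, and leaving out 1 pool gave -0.181 to 0.256 for Muc2, -0.216 to 0.065 for Fcgbp 97826_at and -0.373 to 0.10 for Spdef. For ileum minus duodenum, Agr2 was -0.025 with median centring, -0.236 with the 18S block, -0.491 in the high-18S samples, -0.204 relative to the epithelial markers and -0.117 to 0.37 when 1 pool was left out. Spdef was -0.23 to 0.035 in the latter, and Fcgbp 162286_r_at -0.014 relative to the epithelial markers. For the colon, Fcgbp 162286_r_at minus ileum was 0.009 relative to the epithelial markers and -0.457 to 0.024 when 1 pool was left out, and minus duodenum it was -0.093 with median centring, -0.005 relative to the epithelial markers and -0.184 to 0.297. Fcgbp 97826_at minus duodenum was 0.159 with quantile normalization and -0.291 to 0.192 when 1 pool was left out. Muc13 was 0.173 with quantile normalization, 0.11 relative to the epithelial markers and -0.122 to 0.146 without 1 pool.

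Counts over all probe sets moved by more than 1.5 times too: 339 calls for jejunum minus duodenum became 97 to 854 (212 and 217 without duodenum 2 and 3, 854 and 184 without jejunum 1 and 3), 1020 for ileum minus jejunum 67 to 1410 (657 and 472 without jejunum 2 and 3, 503 and 384 without ileum 1 and 3), 671 for ileum minus duodenum 383 to 818 (401 without ileum 3), 3371 for colon minus jejunum 1557 to 4121, and 2778 for the colon minus the small-intestinal mean 1745 (without colon 3; 1850 without colon 1) to 3064. The resistin-like list has no value under the filter on low values, which left none of its genes. Of the members' probe sets 3 read below the median of every array, and no fold is given for them.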
